A study of Drosophila melanogaster with 24 samples.

Results

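The 932 places on the main chromosome arms where Isha was still found by chromatin immunoprecipitation and sequencing (ChIP-seq) after its own knockdown were compared with the places where the insulator protein CP190 was found in the same knockdown cells. These residual Isha peaks are all peaks of the knockdown Isha list on the arms 2L, 2R, 3L, 3R, 4 and X. They are 932 of 34747 peaks on these arms in the 8 lists of the series. A residual peak was assigned to CP190 when it shared at least 1 bp with one of 8880 knockdown CP190 peaks, which gave 794 residual peaks with CP190 and 138 without.

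The cells were Kc167, a female Drosophila melanogaster line of embryonic origin. Knockdown cells (IshaKD) had received 12 µg of double-stranded RNA against Isha by nucleofection and were grown for 5 days, and mock cells served as their control. Each antibody and treatment has 2 libraries (24 in all, with 8 inputs) but 1 peak list, with positions in the genome build dm6 and no score. The 2 Isha libraries of a treatment were made with different rabbit antisera, Isha-Rb95 and Isha-Rb96, CP190 was precipitated with another rabbit antiserum, and the Isha libraries have inputs of their own. With 1 list per group no difference below has a replicate check or a p-value. Intervals are 95% intervals over peaks and cover counting error only.

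CP190 is a zinc finger and BTB domain protein that is carried to chromatin by several DNA-binding insulator proteins, and it is common at the promoters of active genes as well as at gypsy-type insulators. At those insulators the DNA itself is bound by the zinc fingers of Su(Hw), and Mod(mdg4), a BTB protein, is a partner of both. Isha is the product of CG4266, and the series describes it as a factor that binds the mRNA of su(Hw).

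The name "residual" was checked against the mock list. Of the 932 knockdown peaks, 891 (95.6%, Wilson interval 94.1 to 96.7%) overlapped a mock Isha peak and 41 did not. A mock Isha peak was present at 97.5% of the residual peaks with CP190 and at 84.8% of those without, a difference of 12.7 points (Newcombe interval 7.48 to 19.7). Isha RNA and protein were not analysed here, so the knockdown is seen in these lists only as 932 Isha peaks against 4735 in mock cells. No residual peak lay on chromosome 4, where the mock list held 30 Isha peaks and the knockdown CP190 list 47.

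Most residual Isha lay at CP190. Of the 932 peaks, 794 (85.2%, Wilson interval 82.8 to 87.3%) shared a CP190 peak. Peaks of the same widths placed at every possible start on the same arm would share one in 19.4% of cases, so the observed share was 4.40 times the placement share. Isha lies at genes and so does CP190, and placements that kept whether a peak lay within 500 bp of a gene end gave 33.3%, for a fold of 2.56. Both placement shares are exact means over all positions and carry no test.

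The proportion held on every arm with residual Isha. It was 84.2% on 2L, 88.9% on 2R, 79.6% on 3L, 91.1% on 3R and 84.0% on X. The corresponding folds over placement on the same arm ran from 4.02 on X to 5.13 on 3R. The lowest share, on 3L (73.8 to 84.4%), and the highest, on 3R (85.4 to 94.7%), had intervals that did not overlap. These arms were picked as the extremes after their values were seen, and no difference between arms was tested. The intervals also count neighbouring peaks, such as those in a row at vtd on 3L, as independent.

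The other insulator proteins were much less common at residual Isha, with intervals far below that of CP190. Residual Isha shared Su(Hw) at 64 peaks (6.87%, 5.41 to 8.67%), against 11.2% by placement, a ratio of 0.614. It shared Mod(mdg4) at 33 peaks (3.54%, 2.53 to 4.93%), against 2.21% by placement. The Mod(mdg4) ratio was 1.60 for placement on the arm. It was 1.13 when nearness to gene ends was kept, where the placement share of 3.13% lay inside the observed interval. All 64 peaks with Su(Hw) and all 33 with Mod(mdg4) also had CP190: 728 residual peaks had CP190 alone, 33 had CP190 and Su(Hw), 2 had CP190 and Mod(mdg4), and 31 had all 3 proteins. Of the 138 residual peaks without CP190 none had either protein, with a Wilson upper bound of 2.71% for each. Su(Hw) was at 8.06% of the 794 peaks with CP190, a difference of 8.06 points between the classes (Newcombe interval 4.86 to 10.2). Su(Hw) and CP190 also met often away from Isha. In knockdown cells 3459 of the 5419 CP190 peaks without Isha had Su(Hw), whose list held 4711 peaks. The share of all Su(Hw) or Mod(mdg4) peaks with CP190 is not given here. Its part in the difference between the classes was not tested.

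Residual Isha was more often at CP190 than Isha in mock cells was. The shares were 85.2% of the 932 knockdown peaks, each set against knockdown CP190, and 67.0% of the 4735 mock peaks, set against mock CP190, a difference of 18.2 points (Newcombe interval 15.5 to 20.8). The folds over placement on the arm were 4.40 in knockdown and 3.48 in mock cells, and 2.56 and 2.29 when nearness to gene ends was kept. The 2 Isha lists share most positions of the shorter one, so the interval treats peaks as independent that are not. Median widths were 1676 bp for residual and 1535 bp for mock Isha, and the difference varied with width. Within 4 width sets, limited at the quartiles of the knockdown widths, the difference was 30.9 points among the narrowest peaks (76.8% in knockdown, 46.0% in mock), then 10.0 and 13.5 points, and 6.59 points among the widest (91.4% in knockdown, 84.8% in mock; Newcombe interval 1.84 to 10.3).

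**Figure D1:**
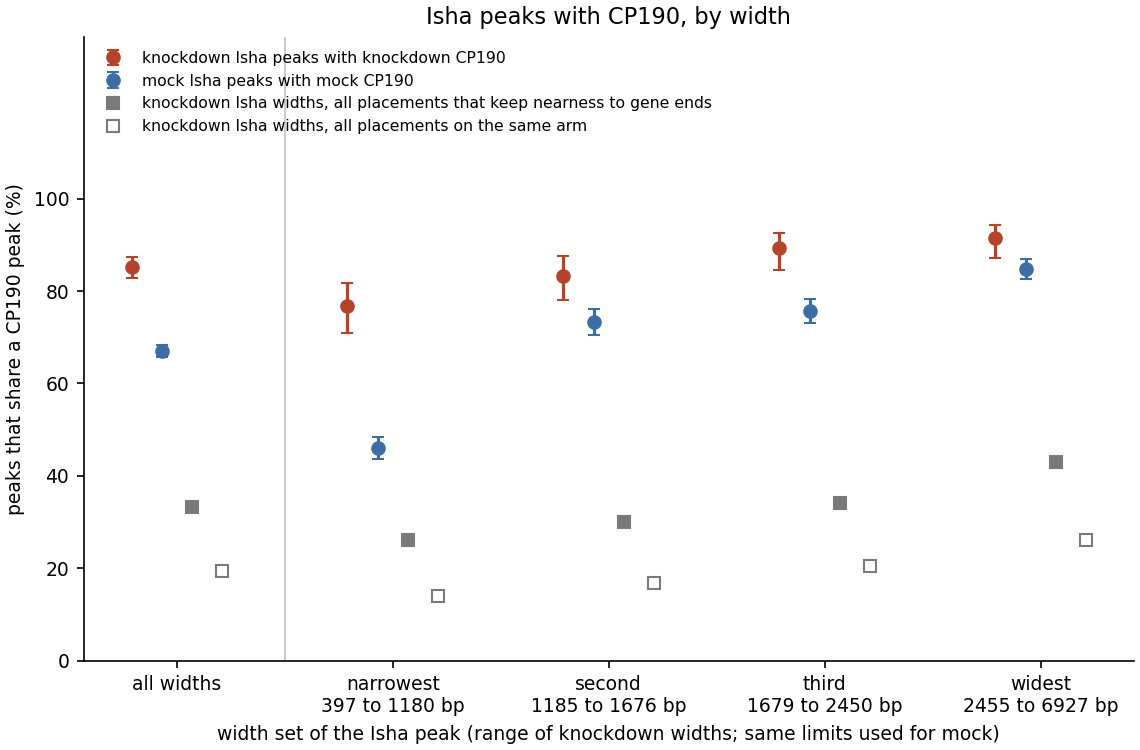
Share of Isha peaks that share a CP190 peak (y axis, %), for all peaks and for 4 width sets (x axis). Circles are observed shares with 95% Wilson intervals, knockdown left of mock, and squares are exact means over placements of the knockdown peaks, with nearness to gene ends kept (filled) or anywhere on the arm (open). The knockdown share runs from 76.8% to 91.4% over the width sets and lies above the mock share and both placement shares in each.

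The CP190 under residual Isha was for the most part present in mock cells too, as was CP190 elsewhere. A mock CP190 peak lay at 91.6% of the knockdown CP190 peaks with residual Isha. It lay at 90.6% of those with Isha in the mock list only and at 88.0% of those with Isha in neither list. At 729 residual peaks (78.2%) CP190 was listed in both treatments, at 65 (6.97%, 5.51 to 8.79%) in knockdown cells only, at 19 (2.04%, 1.31 to 3.16%) in mock cells only, and at 119 (12.8%) in neither. At the 3842 mock Isha peaks with no residual Isha the order was the same: 60.3% had CP190 in both treatments, 5.93% (5.23 to 6.73%) in knockdown cells only, 3.12% (2.62 to 3.72%) in mock cells only, and 30.6% in neither. The knockdown CP190 list is the longer one, with 8880 peaks against 8193, and its part in these counts was not tested. The 41 residual peaks away from any mock Isha peak had CP190 in 20 cases (48.8%, 34.3 to 63.5%), against 86.9% of the 891 at a mock peak, a gap of 38.1 points (Newcombe interval 23.2 to 52.8).

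Most residual peaks with CP190 held a single CP190 peak. Of the 794 residual peaks with CP190, 693 held 1 CP190 peak, 94 held 2, 5 held 3 and 2 held 4. A median of 54.3% of the bases of such an Isha peak lay under CP190, with quartiles of 42.8 and 68.2%. The distance between the midpoints had a median of 427 bp and quartiles of 182 and 677 bp. Over all 932 residual peaks, 27.8% had a CP190 midpoint within 250 bp, 8.33 times the 3.33% by placement on the arm. The shares within 250 bp and 1000 bp were 27.8% and 77.1% in knockdown cells, against 18.4% and 57.9% of mock Isha peaks and mock CP190. For residual peaks without CP190, the nearest CP190 peak was a median of 2834 bp from their edge. Of these 138 peaks, 35 were within 1000 bp of a CP190 peak and 121 within 10000 bp. No placement share was worked out for these distances, so they cannot be called near or far.

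**Figure D2:**
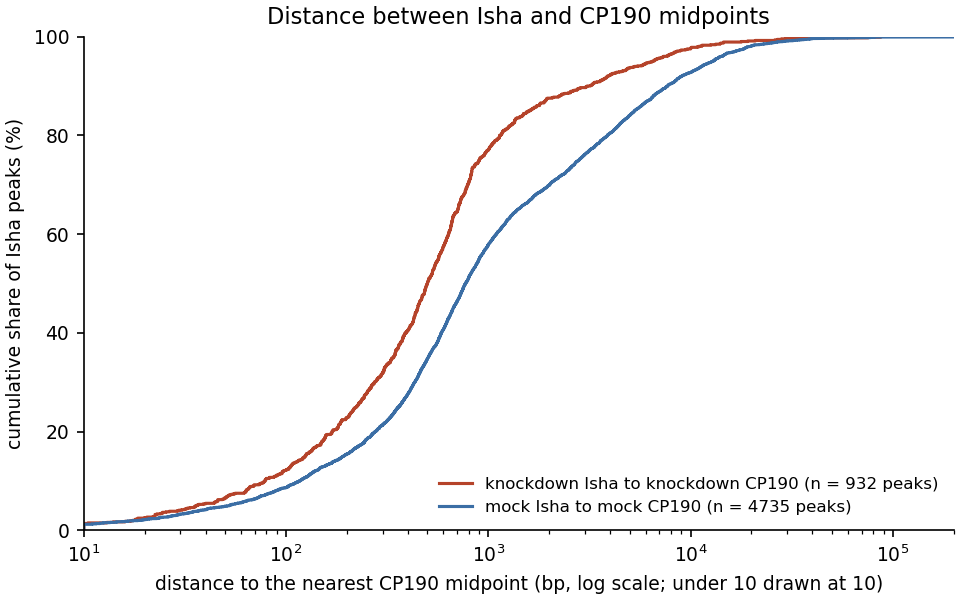
Cumulative share of Isha peaks (y axis, %) by the distance from the peak's midpoint to the nearest CP190 midpoint (x axis, bp, log scale), for knockdown Isha with knockdown CP190 and mock Isha with mock CP190. The knockdown curve reaches 50.1% at 500 bp and the mock curve 34.8%.

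Residual Isha with CP190 lay at the ends of genes. The table of genes gives no strand, so a start and an end of a gene could not be told apart. The midpoint lay no more than 500 bp from either end of a gene coding for a protein for 595 of the 794 peaks with CP190 (74.9%, 71.8 to 77.8%) and for 61 of the 138 without (44.2%, 36.2 to 52.5%), a difference of 30.7 points (Newcombe interval 21.8 to 39.3). Such windows make up 15.0% and 14.9% of the arms these peaks lie on. The median distance to a gene end was 295 bp with CP190 and 569 bp without. Peaks with CP190 had a median width of 1744 bp and peaks without it one of 1364 bp. The difference in nearness narrowed with width: it was 41.0 points in the narrowest set and 15.3 points in the widest, where only 20 peaks lacked CP190 and the interval (-2.59 to 37.5) included 0. Read the other way, CP190 was at 90.7% of the 656 residual peaks near a gene end, against 41.0% by placement, and at 72.1% of the 276 others, against 15.0% by placement.

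Residual peaks with CP190 more often held the ends of several genes, which can be neighbours or overlap. The ends of 2 or more genes lay inside 485 of the 794 peaks with CP190 (61.1%, 57.6 to 64.4%) and inside 35 of the 138 without (25.4%, 18.8 to 33.2%). The part of the greater width of the peaks with CP190 in this count was not tested. The share of midpoints inside a gene was about the same in both classes, at 84.9% with CP190 and 86.2% without, a difference of -1.35 points (Newcombe interval -6.81 to 5.78), and above the 67.0% and 66.4% of the arms that genes cover. In mock cells 68.3% of 3171 Isha peaks with CP190 and 34.7% of 1564 without it were within 500 bp of a gene end.

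**Figure D3:**
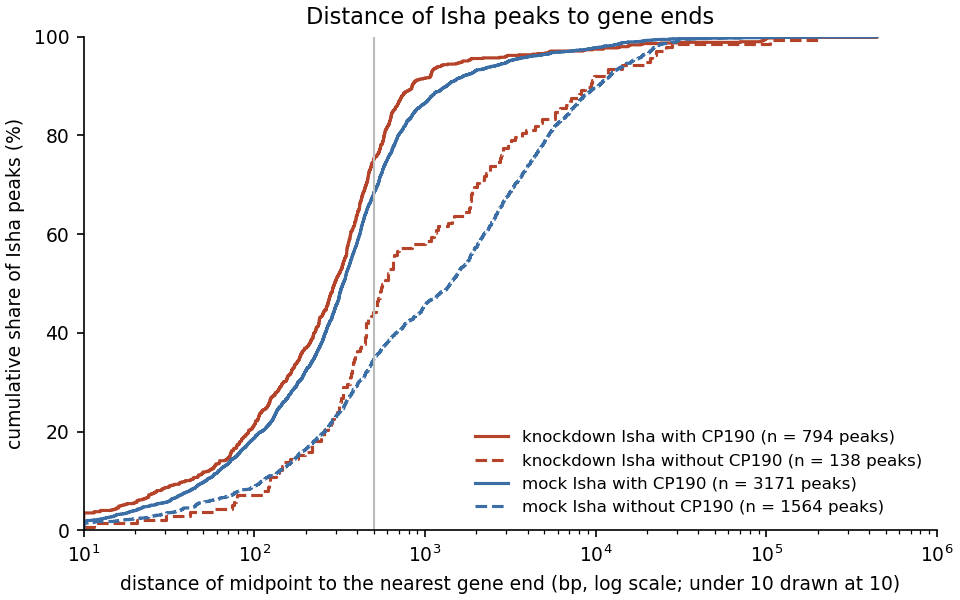
Cumulative share of Isha peaks (y axis, %) by distance of the midpoint to the nearest end of a protein-coding gene (x axis, bp, log scale), for knockdown and mock peaks with and without CP190. The vertical line marks 500 bp, where the curve of residual peaks with CP190 stands at 74.9% and that of residual peaks without it at 44.2%.

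The 10 widest residual peaks with CP190 each reached over the ends of at least 2 genes. A peak at msd5 (3L, 1329461 to 1335215) held 4 CP190 peaks and ends of 6 genes, among them the augmin genes msd1 and msd5 and ND-ACP, the gene of the mitochondrial acyl carrier. The peak at Polr3K, an RNA polymerase III subunit gene (2R, 20639747 to 20645384), also held ends of rig, maf-S, CG11110, Tcs1 and DMAP1. The peak at CG12204 (X, 19490339 to 19496639) held ends of pcm, the cytoplasmic exoribonuclease, and of ND-18, a complex I subunit gene.

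A further 6 of the 10 widest with CP190 lay at sofe and feo, a microtubule bundling factor (X, 10852781 to 10859412), at NdufV3, a complex I subunit gene (X, 11347070 to 11353160), at Charon (2L, 1168482 to 1174434), at Nup153, a nuclear pore gene (X, 16597437 to 16603210), at hng1, and at CG12093 beside the autophagy gene Atg2 (3L, 2770879 to 2776092). Each of the 10 lay at a mock Isha peak and a mock CP190 peak, and none had Su(Hw) or Mod(mdg4) in knockdown cells. These traits were general: of all 794 residual peaks with CP190, 97.5% lay at mock Isha and 91.8% at mock CP190. Only 8.06% of the 794 had Su(Hw) and 4.16% Mod(mdg4).

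The peak at hng1 is also the one at the Isha gene. It spanned 5302 bp (2R, 21166940 to 21172241) and held an end of Isha together with ends of hng1, LSm1, an mRNA decay factor, and Xpd, a helicase of the transcription factor TFIIH. It contained CP190 peaks at 21168043 to 21169338 and at 21170402 to 21171283, against 21168087 to 21169399 and 21170301 to 21171320 in mock cells. The residual peak at Cp190 (3R, 15273697 to 15276456) held 1 CP190 peak (15274488 to 15275824), so CP190 was listed at its own gene in knockdown cells. No residual peak lay within 1000 bp of su(Hw) or mod(mdg4).

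Residual peaks without CP190 included long stretches inside genes. The widest, 5589 bp (2L, 531552 to 537140), lay inside ush, the gene of a zinc finger cofactor of GATA factors in blood cells, and held no gene end. It was 2833 bp from the nearest CP190 peak. A peak over PolD2, a DNA polymerase delta subunit gene (3L, 1773845 to 1778415), held ends of 4 genes and was 16204 bp from CP190. One over kek1, a transmembrane inhibitor of the EGF receptor (2L, 12818571 to 12822875), was 17696 bp from CP190, and one inside NAT1, a translation regulator gene (2R, 12917666 to 12920738), was 233 bp from it.

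The remaining 6 of the 10 widest without CP190 lay at Prp5, a splicing helicase gene (X, 15343065 to 15346758), at Snrk, a kinase gene (2R, 14237823 to 14241094), at Msh6, a mismatch repair gene (3L, 15156943 to 15160027), at CG5800 (X, 17634987 to 17637872), at CG15812 (3L, 3158453 to 3161284) and at CG12099 (3L, 1556664 to 1559469). Each of these 6 held ends of 2 genes, so the class also contained peaks that reach over more than 1 gene. All 10 lay at a mock Isha peak. Msh6 was the one with a CP190 peak in mock cells (3L, 15158196 to 15159391).

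The 5 residual peaks farthest from CP190 were all on 3L and on the side of that arm next to the centromere. They lay 205002 bp from CG40228, the nearest gene (26876499 to 26877677), inside lovit (25341473 to 25342211), and in a row at vtd, the cohesin subunit gene also known as Rad21 (27133519 to 27134756, 27134916 to 27135874 and 27136016 to 27137602). Their distances to CP190 were 86234, 74839, 27157, 28554 and 29654 bp. A CP190 peak was listed in mock cells at 4 of the 5, the exception being the first of the row at vtd. All but the peak in lovit lay at mock Isha.

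Residual peaks were seldom clustered. Assigned to the gene that holds the midpoint, or else the nearest, they fell to 902 genes, of which 17 took 2 or more and 7 took 3 or more. These 7 genes, named after their values were seen, held 27 residual peaks, 10 with CP190 and 17 without. The gene ush had 6, kuz, the metalloprotease gene that acts in Notch signalling, had 3, sty, an inhibitor of receptor tyrosine kinase signalling, had 3, and Spn, the spinophilin gene, had 3. The ETS factor gene pnt had 4, vtd had 3, and the synaptic fusion gene Snap25 had 5. All of those at kuz, sty and vtd lacked CP190, and all of those at Snap25 had CP190, Su(Hw) and Mod(mdg4). The 5 at Snap25 lay side by side from 24168996 to 24176015 on 3L, where the mock list had 1 peak, so they are not separate sites in that list. The same holds for the 3 at vtd, which all met 1 mock Isha peak (3L, 27133843 to 27137899).

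The ush gene (2L, 476220 to 540560) shows both classes. Of its 6 residual peaks, those at 479170 to 480381 and at 489918 to 491705 had CP190 and Su(Hw), and the second also had Mod(mdg4). The other 4, at 499617 to 502340, 507009 to 508575, 528400 to 529161 and 531552 to 537140, had neither and lay 1306 to 6526 bp from CP190. Over the whole gene there were 6 residual and 18 mock Isha peaks, and 11 CP190 peaks in knockdown cells. The 3 residual peaks at kuz (2L, 13553588 to 13554466, 13574062 to 13575553 and 13616168 to 13616753) had no mock Isha peak.

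**Figure D4:**
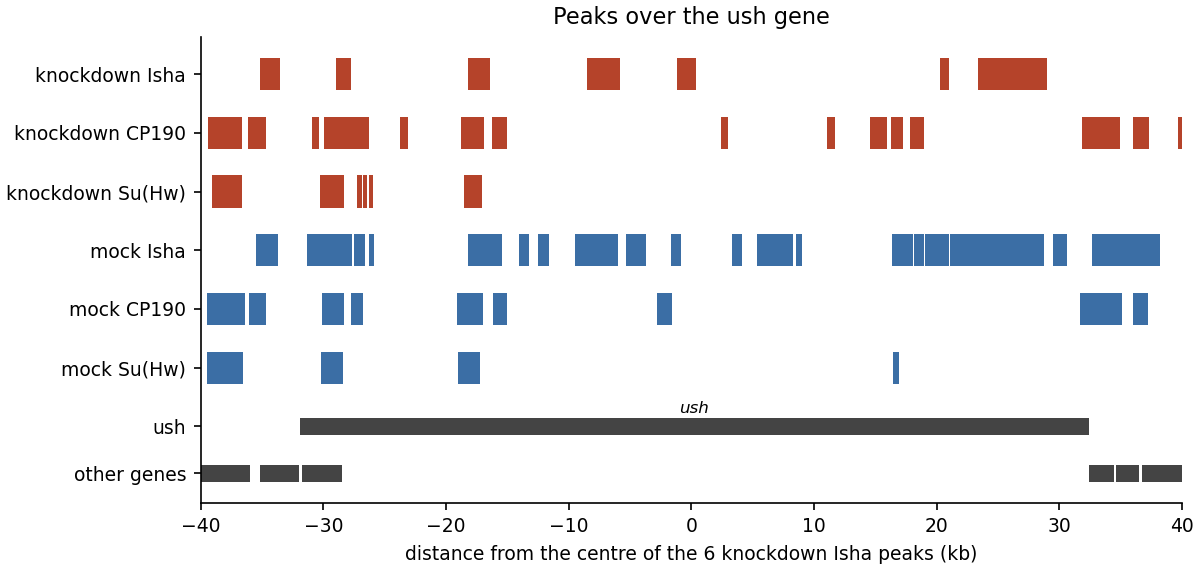
Map of the ush region, with peaks of each list as boxes in rows and genes below, against distance in kb from the centre of the 6 knockdown Isha peaks of ush (x axis). The 2 leftmost of the knockdown Isha peaks over ush lie on CP190 boxes and the other 4 lie between them; the box farthest left belongs to a neighbouring gene.

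The sites with all 3 insulator proteins were few. The 5 widest of these 31 lay in Myo81F (3R, 2084991 to 2089485), at Girdin (3L, 3178364 to 3181269), at the proteasome gene Rpn13 (2R, 13958766 to 13961046), at Gga (X, 9600543 to 9602682) and in Snap25 (3L, 24173916 to 24176015). In Myo81F and Snap25, where no gene end was inside the peak, CP190 covered 97.4% and 96.2% of the Isha peak. At Girdin, Rpn13 and Gga, which held gene ends, it covered 35.3%, 48.3% and 57.2%.

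Among the 41 residual peaks with no mock Isha, the 5 widest lay over Arl5 (3L, 8298476 to 8301366), at rno (3L, 197637 to 200200), near CG40228 (3L, 27092631 to 27094736), at PDCD-5 (3L, 16231073 to 16232670) and inside kuz (2L, 13574062 to 13575553). Those at Arl5, rno and PDCD-5 had CP190 in both treatments and held gene ends. Those near CG40228 and in kuz had CP190 in neither and held none.

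A residual Isha peak lay within 1000 bp of 2060 of 13922 protein-coding genes (14.8%), against 6922 (49.7%) with mock Isha and 8767 (63%) with knockdown CP190. A residual peak with CP190 was near 1870 genes (13.4%) and one without CP190 near 244 (1.75%). Of these genes 1816 had the first kind only, 190 the second only and 54 both. Of the 6922 genes with mock Isha, 2037 (29.4%) had residual Isha. The gene groups below, several of which share peaks between neighbouring members, are described by their counts beside these shares, and no group was tested. Their CP190 counts are to be read beside the 1870 of 2060 genes with residual Isha that had it with CP190.

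Genes of protein turnover and protein synthesis had residual Isha at shares above the 14.8% of all genes. It was at 18 of 48 proteasome genes, paralogs included (37.5%). Mock Isha was at 34 proteasome genes, and residual Isha at 52.9% of these. They included the regulatory particle genes Rpt4, Rpt3, Rpn3 and Rpt1 and the core genes Prosbeta4 and Prosalpha1, and at 17 of the 18 the peak had CP190. The exception was Rpt3, whose peak (X, 11127583 to 11129217) had no CP190 and lay outside the gene but within 1000 bp of it. Of 52 translation initiation and elongation factor genes 17 had residual Isha (32.7% of the group and 41.5% of the 41 with mock Isha), and all 17 had it with CP190, among them eIF2Bepsilon, eIF5, eIF2alpha, eIF4H1, eIF3m and eIF2Bgamma. Over all genes with residual Isha, 1870 of 2060 had it with CP190, so CP190 was common well beyond these groups. A single peak served both eIF2alpha and eIF4H1 (X, 16447547 to 16450423).

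Ribosomal protein genes had residual Isha at 23.9% (cytosolic) and 30.1% (mitochondrial) of each group, also above 14.8%. Set against the genes with mock Isha, the shares lay on either side of the 29.4% of all such genes. Of 92 cytosolic ribosomal protein genes, 84 had mock Isha and 22 residual Isha, 26.2% of the 84. The 22 all had it with CP190, as at RpL36 (X, 628005 to 631014), RpL22, RpL35, RpS19a, RpLP1 and RpL24, and RpL23A had a peak of each kind. Of 73 mitochondrial ribosomal protein genes, 69 had mock and 22 residual Isha, 31.9% of the 69. With CP190 there were 21, among them mRpL16, mRpS30, mRpL22, mRpL4, mRpL13 and mRpL42. The one without it, mRpL46, lies under the PolD2 peak.

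Among 30 insulator and architectural protein genes 9 had residual Isha (30%), of 27 with mock Isha. They were Cp190, Isha, pzg, the chromodomain gene Chro, pita, vtd and, named after their values were seen, HIPP1, mri and l(3)mbt. The peaks at all but vtd had CP190. Of 17 heat shock and chaperone genes Hsp68, Hsp83, Hsp60A and DnaJ-1 had a residual peak (23.5%), all 4 with CP190. Of 22 cell cycle and replication genes Dp, Orc1, dup and geminin did (18.2%), all 4 with CP190, and 21 of the 22 had mock Isha. Of 21 Polycomb and trithorax group genes phol, Sfmbt, mor and kis did (19.05%), of 17 with mock Isha. The peak at Sfmbt (2L, 13174895 to 13175553) lacked CP190. Among genes with mock Isha, residual Isha was at 33.3% in the insulator group and 28.6% in the heat shock group. It was at 19.05% in the cell cycle group and 23.5% in the Polycomb group, against 29.4% over all such genes.

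Of 15 blood cell genes 4 had residual Isha within 1000 bp (26.7%), of 8 with mock Isha: srp, the GATA factor gene, ush, Pvr, a receptor tyrosine kinase gene, and crq, a scavenger receptor gene. A residual peak without CP190 was near 3 of the 15, against 1.75% of all genes: srp (3R, 15994594 to 15996334), ush and Pvr (2L, 8218914 to 8220897). Gene length was not taken into account here. Genes holding the midpoint of a residual peak had a median length of 4998 bp without CP190 and 2624 bp with it. The median over all genes was 2163 bp, and srp, ush and Pvr are each longer than these medians. The peak at Pvr ended just outside that gene, with its midpoint inside the neighbouring gene Snx6. A residual peak with CP190 was near ush, Pvr (2L, 8239414 to 8240397) and crq (2L, 452398 to 454277). Of 14 ecdysone genes 2 had residual Isha (14.3%, near the 14.8% of all genes), Hr39 with CP190 and the receptor gene EcR without it (2R, 6121620 to 6124282). Of 18 neuronal genes 2 did (11.1%), nSyb and Snap25, both with CP190 and Su(Hw). The peak near nSyb (3L, 1638208 to 1640905) lay outside that gene, and the gene nearest its midpoint was Bgb. None of 17 Hox and segmentation genes had residual Isha, and 1 had mock Isha.

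**Figure D5:**
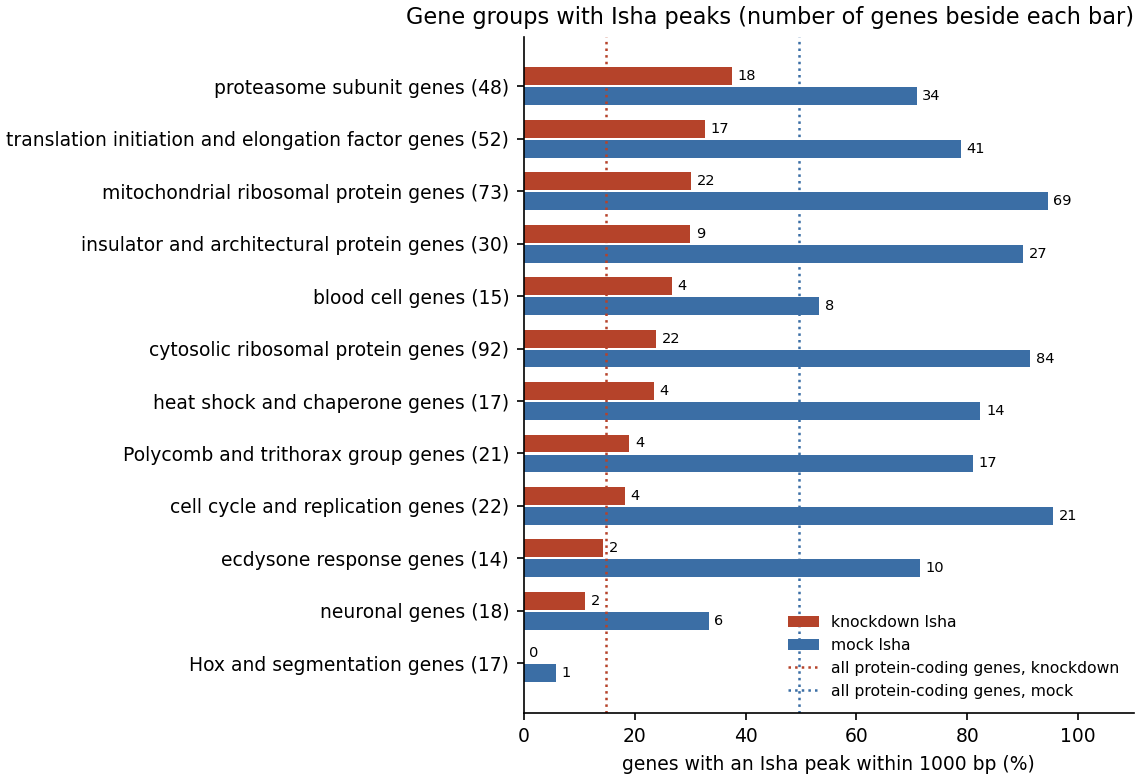
Share of the genes of each group with an Isha peak within 1000 bp (x axis, %), knockdown above mock, with the number of genes beside each bar and the size of the group in brackets. Dotted lines mark all protein-coding genes, 14.8% in knockdown and 49.7% in mock cells.

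Seen from CP190, residual Isha was uncommon. Of the 8880 knockdown CP190 peaks, 881 (9.92%, 9.32 to 10.6%) carried residual Isha, against 2.17% by placement. A further 2580 (29.1%) had Isha in the mock list only, and 5419 (61.0%) in neither. The CP190 peaks with residual Isha were near gene ends in 92.3% of cases (90.3 to 93.9%), those with mock Isha only in 86.0% and those without Isha in 27.7%. The first 2 classes differed by 6.23 points (Newcombe interval 3.90 to 8.34). Su(Hw) was at 7.72% of the CP190 peaks with residual Isha and at 8.49% of those with mock Isha only, a difference of -0.77 points whose interval (-2.72 to 1.43) included 0, and at 63.8% of the CP190 peaks without Isha. CP190 peaks with residual Isha had a median width of 1224 bp, those with mock Isha only 1161 bp and those without Isha 1088 bp.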

How the data were processed

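Peaks of Isha, CP190, Su(Hw) and Mod(mdg4) were read from 8 lists, 1 per antibody and treatment, which the authors deposited as start and end positions in base pairs with no score. Per the submitters' processing notes, Bowtie2 2.4.1, SAMtools 1.9, Picard 2.22.2 and the build dm6 were used. How peaks were called, at which threshold, and how the 2 replicates entered 1 list is not given in the sources used here. Depth is unknown. Groups come from the names of the lists, with "SwHw" read as Su(Hw).

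Peaks on Y (1 Isha and 3 CP190 peaks in knockdown cells) were left out. Coordinates are counted from 1. The placement share is the exact mean over all starts on the same arm with width kept, or over those that keep whether the midpoint is within 500 bp of a gene end. The end of an arm was taken as the largest coordinate of a gene or peak. Genes come from a RefSeq table of Release 6 plus ISO1 MT, the assembly of dm6, which gives no strand. A midpoint inside several genes was assigned to the gene with the nearest end. All symbols of the gene groups matched, some through synonyms (Rad21 and vtd, and Eip28/29 and Eip71CD, are 1 gene each).

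Peaks were named by rule: the 10 widest of each class, the 5 farthest from CP190, the 5 widest with all 3 proteins and without mock Isha, those at 4 insulator genes, and up to 6 genes per group in the order of its list. One of the 10 widest peaks with CP190 is counted but not reported here. Residual peaks, lists and rules were chosen with earlier results of these data known. No test was made, since each group has 1 list. The overlap and placement steps were tested on simulated data. Python 3.11.15, NumPy 2.4.6, pandas 2.3.3, SciPy 1.17.1 and matplotlib 3.10.9 were used.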

Additional observations from a re-analysis of the deposited data

How the results depend on the processing

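The share of residual Isha with CP190 depended on what counts as shared. It was 37.2% with 50% reciprocal overlap, 27.8% with midpoints within 250 bp, 55.4% when only CP190 peaks above their median width were used, and 47.3% of base pairs, while merging peaks within 500 bp (85.4%), using all sequences (85.2%) and keeping only residual peaks at a mock Isha peak (86.9%, chosen after seeing the data) stayed within the reported interval. The fold over placement was 2.56 with nearness to gene ends kept and 8.33 with midpoints within 250 bp; reciprocal overlap was not run for it. The share of CP190 peaks with residual Isha was 3.91% and 2.92% under the reciprocal and midpoint definitions. The knockdown minus mock difference was 30.9, 10.0, 13.5 and 6.59 points in the width sets from narrow to wide, 13.3 with mock CP190 for both Isha lists, 9.50 with reciprocal overlap and 9.37 with midpoints. The difference in nearness to gene ends was 41.0, 29.2, 20.0 and 15.3 points in the width sets, and 24.7 and 32.9 with windows of 250 and 1000 bp. The difference in the share with Su(Hw) between residual peaks with and without CP190 was 4.50 points with reciprocal overlap and 5.20 with midpoints. Genes with residual Isha numbered 1791 within 500 bp of a gene end and 1575 by gene body. Of the 28 alternatives, 19 fell outside the interval of the reported value. The other 9 were counted as unmoved, among them the gene counts, which have no interval. No alternative for a difference changed its sign, and none for the fold took it below 1. Shares and gene counts could not be judged in that way. The cause of each shift was not tested. A stricter peak threshold could not be run because the lists hold no score. No paired analysis was possible because each antibody and treatment has 1 list with no column for a replicate, which also kept a replicate from being left out. Without scores or depth, a missing peak may be one that lies under the authors' threshold.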

Other observations

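Residual Isha was also set against genes that do not code for proteins, counted here when a peak overlapped the gene body. It overlapped 26 of 1959 long non-coding RNA genes (1.33%), 43 of 503 antisense RNA genes (8.55%), 5 of 269 small nucleolar RNA genes (1.86%), 6 of 260 microRNA genes (2.31%), 2 of 290 tRNA genes (0.690%) and none of 32 small nuclear RNA genes, against 1575 of 13922 protein-coding genes (11.3%) by the same count. In mock cells Isha overlapped 139 (7.10%), 181 (36.0%), 91 (33.8%), 32 (12.3%), 7 (2.41%) and 1 (3.13%) genes of these classes. Among protein-coding genes the mock count was 6068 (43.6%). Both shares of small nucleolar RNA genes, 1.86% and 33.8%, thus lay below those of protein-coding genes. These are counts of genes, and 1 peak can overlap several. Of the 5 small nucleolar RNA genes with residual Isha, which include snoRNA:Psi28S-2444 and snoRNA:Psi18S-996, 4 lay under a peak with CP190. Among protein-coding genes 1427 of the 1575 did. Antisense and small RNA genes lie inside or across other genes, and peaks of this width cannot be assigned to one of them.

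On the Y chromosome, which was left out of the comparisons, the knockdown lists held 1 Isha peak and 3 CP190 peaks although the line is labelled female. The Isha peak overlapped both a CP190 peak and a mock Isha peak.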
